A study of Danio rerio with 6 samples.

Results

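In liver RNA of zebrafish offspring, 5 genes that were well above background after fertilisation with fresh sperm were nearly without reads after fertilisation with cryopreserved sperm. They are PHF21A (ENSDARG00000006878), cbr1l (ENSDARG00000021149), tmem82 (ENSDARG00000097606), PIK3C2A (ENSDARG00000060841) and LIPG (ENSDARG00000031044), 5 of the 32520 genes in the count table. They were picked by name because their counts differed between the groups, so their levels are described here without a test. Several symbols stand in capitals in the name table, and a symbol shared by several rows is given with its Ensembl identifier.

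The study sequenced polyadenylated RNA from the livers of wild-type fish of the AB strain, a common laboratory strain, in 3 libraries from offspring of fresh sperm (the control, fresh replicates 1 to 3) and 3 from offspring of cryopreserved sperm (cryo replicates 1 to 3). The sources used here give no sex, age or pooling of the fish. The p-values below set the difference between the groups against the spread between these libraries. Only 1 batch is named for the 6 libraries. The labels assign fresh sperm to the titles that begin with F and cryopreservation to those that begin with C, letters that could also stand for frozen and control; if the labels were crossed, every direction below would turn around.

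Total counts were 16885619 to 17606733 in the fresh libraries and 8277183 to 16146121 in the cryo libraries. Levels are in CPM, the usual depth-scaled count, with library sizes adjusted by TMM, a normalisation on the bulk of the genes. Hepatocyte markers summed to 233280 to 262270 CPM in fresh and 256330 to 356160 CPM in cryo libraries, with counts for all 19 genes of the list. Vitellogenin, the yolk precursor of egg-laying females, with 7 genes found in the table, took 17.4% and 12.4% of all counts in cryo replicates 2 and 3, against at most 6.04e-04% in each of the other 4 libraries. The 21 exocrine pancreas markers summed to 467 to 826 CPM in fresh and 1498 to 5097 CPM in cryo libraries, 9 of 18 tested markers passing the test, all higher in the cryo group; 1 of the 21 had no count in any library. The 21 intestinal markers summed to 1798.5 to 2034.2 CPM in fresh and 861 to 1369.7 CPM in cryo libraries, with 0 of 9 tested markers called by edgeR. That sum was led by apoa4b.1 (mean 1215 CPM in fresh and 645 CPM in cryo libraries) and RBP2 (ENSDARG00000070038, 623 and 341 CPM). Both were lower in every cryo library than in any fresh library, as were apoa4b.3 (39.5 and 5.59 CPM) and apoa4b.2 (6.4 and 1.47 CPM). None of these passed the test. The list held rbp2a, which was matched to both RBP2 rows, and which row is rbp2a is not given. The other RBP2 row had 1 count in each group. Other intestinal markers were higher in every cryo library than in any fresh library, without passing the test or at counts too low to be tested: CDH17 (7.87 and 16.7 CPM), ANPEP (ENSDARG00000103878, 2.84 and 6.77 CPM), SLC5A1 (1.15 and 3.75 CPM), VIL1 (0.098 and 2.2 CPM) and AGR2 (0.0199 and 0.932 CPM). FABP2 had 3 counts in all, FABP6, cdx4 and the FABP1 row ENSDARG00000019357 had none, and the other FABP1 row, ENSDARG00000059227, had 71 counts in the fresh and 9 in the cryo group. Lymphocyte markers summed to 74.5 to 126 CPM in fresh and 237 to 420 CPM in cryo libraries, with 2 of 4 tested called higher. Those 2, cd74a (mean 66.6 CPM in fresh and 243 CPM in cryo libraries) and cd74b (26.6 and 97.1 CPM), led the sum. By contrast, il2rb (3.88 and 1.43 CPM) was lower in every cryo library than in any fresh library, without passing the test. Too low in counts to be tested, ighm (0.332 and 1.86 CPM) and igic1s1 (0.0363 and 0.329 CPM) were higher without overlap. ZAP70 overlapped between the groups, and 6 of the 18 lymphocyte markers had no count in any library. Of the macrophage markers 2 of 17 tested were called higher, as was 1 of 13 stellate cell and fibroblast markers, beside 1.02% of all tested genes. Macrophage sums overlapped, at 473 to 1844.8 CPM in fresh and 1475.1 to 2186.2 CPM in cryo libraries. Stellate cell and fibroblast sums overlapped too, at 85.8 to 117 and 89.7 to 248 CPM. The 2 called macrophage markers were MFAP4 rows, ENSDARG00000038681 (1.49 and 8.77 CPM) and ENSDARG00000090783 (0.291 and 2.52 CPM). The median log2 change of the tested macrophage markers was 1.49. Also higher without overlap, but not past the test, were csf1ra, irg1l, ctss2.1, SPI1, MFAP4 (ENSDARG00000089667) and MPEG1 (ENSDARG00000055290 and ENSDARG00000043093). By contrast, ctss2.2 (145 and 30.9 CPM), c1qb (1.76 and 0.111 CPM) and cd68 (175 and 150 CPM) were lower without overlap, and did not pass the test. The part of RNA from these other cell types, or of vitellogenin RNA, in the levels below was not tested. Cryo replicate 1 held 1.55e-04% vitellogenin, and each of the 5 genes was below 1 CPM in it.

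The 5 genes belong to different branches of cell biology. PHF21A, known in mammals as BHC80, is a histone-reading subunit of the LSD1-CoREST corepressor complex, which removes activating marks from histone H3 and helps keep neuronal genes off in other tissues. cbr1l is named as a relative of carbonyl reductase, a short-chain dehydrogenase that uses NADPH to reduce aldehydes and ketones of endogenous and foreign origin. PIK3C2A is a class II phosphoinositide kinase that binds clathrin and makes the lipids used late in the formation of endocytic vesicles. LIPG is endothelial lipase, in mammals a secreted phospholipase that acts mainly on high-density lipoprotein (HDL). tmem82 encodes a transmembrane protein whose function is little known.

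PHF21A had 471, 608 and 610 counts in fresh replicates 1, 2 and 3 and 0 counts in each cryo library. Its levels in the fresh libraries were 27.7, 33.1 and 36.5 CPM, with a mean of 32.4 ± 4.44 CPM (SD, n = 3). All 3 fresh libraries were high and no cryo library gave a read. At the fresh mean, cryo replicates 1, 2 and 3 would have held 501, 229 and 292 counts. The 0 counts allow a level of up to 0.0952 CPM (3 counts over the cryo group), which is 0.294% of the fresh mean, so PHF21A was at least 341-fold lower, a bound of 174 without cryo replicate 1, the deepest of the 3. Such limits and all counting intervals here cover counting error only. Ratios and folds with counting intervals set the fresh mean over the pooled cryo level, which is the summed cryo counts over the summed cryo library sizes. They therefore differ somewhat from ratios of the group means.

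cbr1l, the most strongly read of the 5 in each fresh library by counts, had 1240, 1625 and 1037 counts there, or 72.9, 88.5 and 62.0 CPM. Cryo replicate 1 had 2 counts and cryo replicates 2 and 3 had 0, where the fresh mean would have given 1151, 525 and 671. The 2 reads of cryo replicate 1 were thus the only ones in the group. The fresh mean was 74.5 ± 13.3 CPM (SD, n = 3), a ratio of 1173.5 over the cryo group with an exact 95% Poisson interval of 325 to 9690. Without cryo replicate 1 no read was left, and cbr1l was at least 399-fold lower.

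tmem82 had 223, 243 and 245 counts in the fresh libraries, or 13.1, 13.2 and 14.7 CPM. The fresh libraries lay close together, with a mean of 13.7 ± 0.86 CPM (SD, n = 3). In cryo replicates 1, 2 and 3 the counts were 4, 0 and 1, where 211, 96 and 123 would be held at the fresh mean. The groups were far apart, and the ratio was 86.1 with a counting interval of 36.9 to 265; without cryo replicate 1, which held 4 of the 5 cryo reads, it was 219.

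PIK3C2A varied more among the fresh libraries, with 388, 195 and 288 counts, or 22.8, 10.6 and 17.2 CPM. Fresh replicate 1 was 2.15 times fresh replicate 2. Cryo replicates 1, 2 and 3 had 3, 2 and 0 counts, where 261, 119 and 152 would be held at the fresh mean of 16.9 ± 6.1 CPM (SD, n = 3). Even the lowest fresh library stood far above the highest cryo library, and the ratio was 106 with a counting interval of 45.6 to 328.

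LIPG was the least complete of the 5 losses and was detected in every library. It had 784, 649 and 320 counts in the fresh libraries, or 46.1, 35.3 and 19.1 CPM, and 15, 5 and 8 counts in cryo replicates 1, 2 and 3, or 0.97, 0.709 and 0.888 CPM. The cryo libraries all lay at or below 0.97 CPM, on counts too few to show whether they share a level. The fresh libraries spread over a 2.41-fold range. The fresh mean was 33.5 ± 13.6 CPM and the cryo mean 0.856 ± 0.133 CPM (SD, n = 3 each). The ratio of the fresh mean to the pooled cryo level of 0.888 CPM was 37.7, with a counting interval of 26.1 to 56.8.

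**Figure D1:**
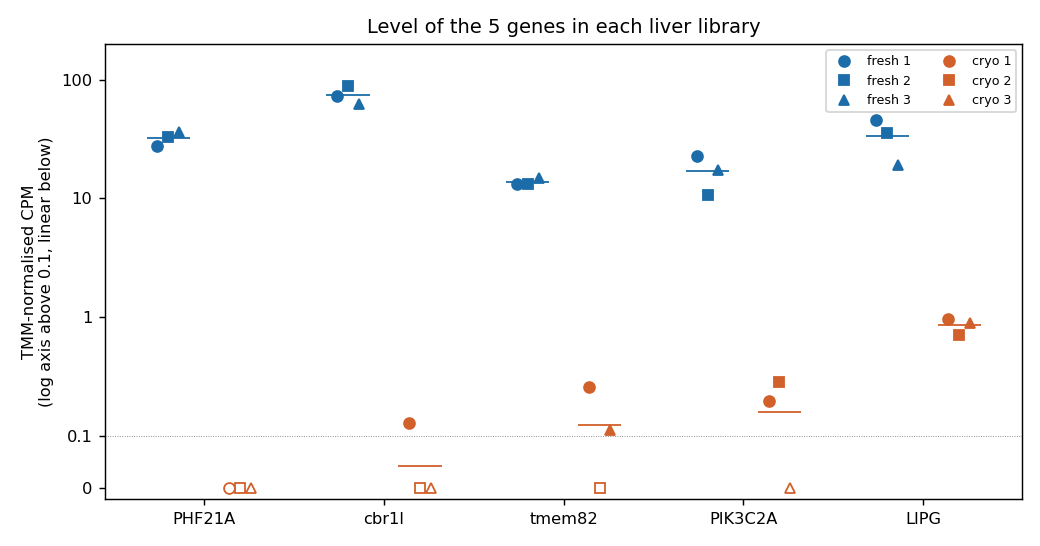
TMM-normalised CPM (axis logarithmic above 0.1 and linear below) of the 5 genes in the 3 fresh and 3 cryo libraries; symbols mark replicates, open symbols a count of 0, and lines the group means. Fresh libraries lie between 10.6 and 88.5 CPM, and the highest cryo value is 0.97 CPM, for LIPG in cryo replicate 1.

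For all 5 genes every fresh library lay above every cryo library; over the 12674 genes that passed the filter on low counts, 13.4% lay that way and 24.6% did not overlap in either direction. All 5 passed that filter, through the fresh group. Since the genes were picked on this contrast, nothing is read from that count. The edgeR quasi-likelihood test called 0.963% of tested genes lower and 1.02% higher in the cryo group, at a Benjamini-Hochberg adjusted p under 0.05.

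Whether variation among the fresh libraries bore on the choice of the 5 genes is not known, so it is described here without a test. The coefficient of variation over the fresh libraries was 6.29% for tmem82, 13.7% for PHF21A, 17.8% for cbr1l, 36.2% for PIK3C2A and 40.5% for LIPG, beside a median of 22.8% over 12666 tested genes with a fresh count. tmem82 was steadier than most genes, with 7.18% of tested genes below it, whereas 77.3% of tested genes varied less than LIPG. The 5 genes did not share an order of the fresh libraries: LIPG and PIK3C2A were highest in replicate 1, cbr1l in replicate 2, and PHF21A and tmem82 in replicate 3.

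Near-silence of this degree was rare among genes read at this level. Of 4290 genes with at least 10 CPM in every fresh library, the median gene kept 88.2% of its fresh level in the cryo group, 57 genes kept under 20%, 14 under 5% and 5 under 1%. PHF21A kept 0% (0.294% at its limit), cbr1l 0.0852%, PIK3C2A 0.94%, tmem82 1.16% and LIPG 2.65%. Going by this share, 9 of the 4290 genes stood below LIPG, and the other 4 named genes were among them. Since the 5 genes were picked on this contrast, their low place follows from the choice and is a description. A stricter pattern, with at most 3 counts over the cryo group, held for 3 of the 4290 genes: PHF21A, cbr1l and si:dkeyp-73d8.8, which went from 892 counts in the fresh group to 3. The fresh group was read deeper than the cryo group, so the same limit in counts is stricter there. The mirror pattern, at least 10 CPM in every cryo library and at most 3 counts over the fresh group, held for 0 of 3856 genes. With the vitellogenic cryo replicates 2 and 3 both left out these counts were 9 and 3, and without cryo replicate 1 they were 11 and 14. Just outside the stricter pattern stood tmem82 and PIK3C2A, with 5 counts each in the cryo group, and LIPG with 28.

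**Figure D2:**
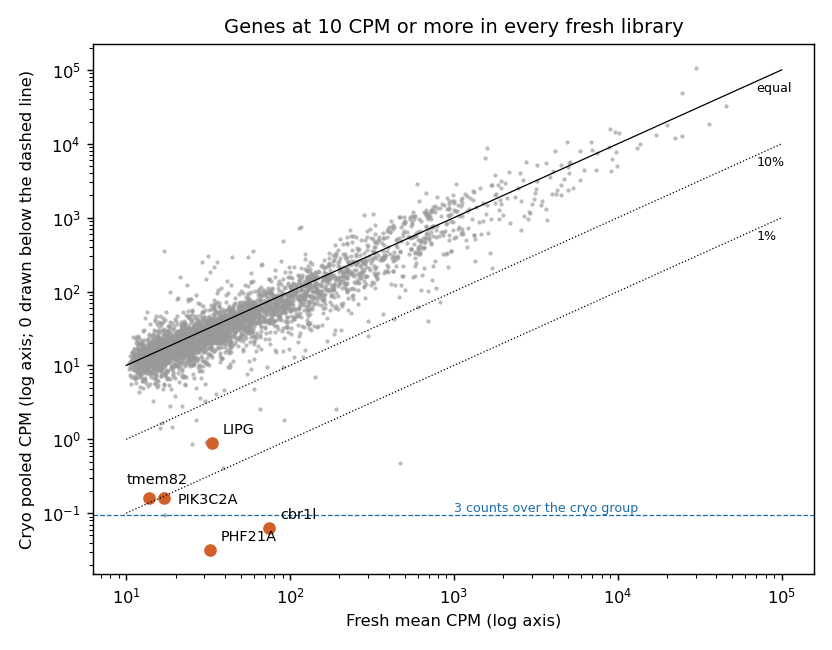
Fresh mean CPM against pooled cryo CPM (both axes logarithmic) for the 4290 genes with at least 10 CPM in every fresh library; lines mark equal levels, 10% and 1%, and the dashed line 3 counts over the cryo group. The 5 named genes (orange) lie far under the cloud; PHF21A, with 0 counts, is drawn at an arbitrary height below the dashed line.

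The table holds another copy of PHF21A (ENSDARG00000021378), and it did not show the loss. Its levels were 2.65, 4.36 and 3.41 CPM in the fresh libraries and 4.40, 4.40 and 3.66 CPM in cryo replicates 1, 2 and 3. The groups overlapped, and the log2 change (cryo over fresh) was 0.26 ± 0.33 (SE; edgeR adjusted p = 0.729), a test that does not show the levels to be equal. Both copies together stood at 30.3, 37.5 and 39.9 CPM in the fresh libraries and 4.4, 4.4 and 3.66 CPM in the cryo libraries, all of the latter from the second copy. The silent copy gave 88.4 to 91.5% of the pair's counts in the fresh libraries. RefSeq names the zebrafish genes phf21aa and phf21ab, and the name table does not say which row is which. Reads could be split between near-identical stretches of such copies, since the counting rule is not given in the sources used here. PHF21B, a further relative, was scarce, with 36 counts in the fresh and 21 in the cryo group.

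No other row carries the symbols cbr1l, tmem82, PIK3C2A or LIPG, so cbr1l and PIK3C2A were set beside family members chosen by name. CBR1 (ENSDARG00000036587), the carbonyl reductase gene that cbr1l is named after, had 10.9, 16.5 and 10.2 CPM in the fresh and 15.1, 17.2 and 7.66 CPM in the cryo libraries. These groups overlapped, at a log2 change of 0.09 ± 0.36 (SE; edgeR adjusted p = 0.93), which turned to -0.02 without cryo replicate 1 and -0.08 without cryo replicate 2. Reads of the pair came to 72.2 to 105 CPM in fresh and 7.66 to 17.2 CPM in cryo libraries, with 84.3 to 87.0% of the counts from cbr1l in the fresh libraries and at most 0.847% in a cryo library.

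The other class II kinases kept their reads in the cryo group. PIK3C2B had 9.58, 15.2 and 18.2 fresh CPM and 11.5, 8.09 and 18.4 cryo CPM, overlapping groups with a log2 change of -0.18 ± 0.38 (SE; edgeR adjusted p = 0.851). Its sign turned without fresh replicate 3 (0.08) or cryo replicate 2 (0.10). The gene pik3c2g was low, at 1.26 to 1.53 CPM in fresh and 0.777 to 1.1 CPM in cryo libraries, which did not overlap, but its change of -0.58 ± 0.42 did not pass (adjusted p = 0.512). PIK3C2A gave 67.2, 39.0 and 47.0% of the family's counts in fresh replicates 1, 2 and 3 and 1.52, 3.08 and 0% in cryo replicates 1, 2 and 3. These shares are of counts and are not scaled by gene length.

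**Figure D3:**
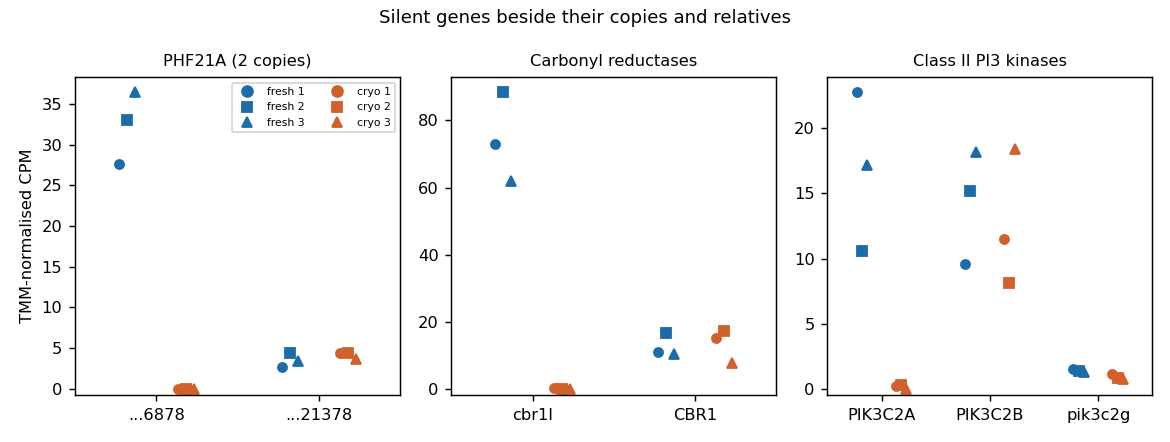
TMM-normalised CPM (linear axes, each panel with its own scale) of the silent genes beside the other PHF21A row, CBR1, PIK3C2B and pik3c2g in the 6 libraries; symbols mark replicates. The cryo values of PHF21A (ENSDARG00000006878), cbr1l and PIK3C2A lie at or near 0, while those of the relatives lie within or close to the fresh range.

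Genes lying beside a silent gene were examined next, using the gene order of RefSeq's GRCz12tu assembly, matched by symbol. It placed 4 of the 5 genes, on 4 different chromosomes; PHF21A could not be placed. The assembly differs from that of the counts, so the order of genes is used and no position is given. In the RefSeq assembly no annotated gene overlaps any of the 4, and overlap in the annotation used for the counts was not examined. Of the 40 nearest annotated genes, 5 on each side of each gene, 21 were found in the count table, 9 of those had no count in any library and 9 could be tested.

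Both neighbours that passed the test lay beside tmem82, on the same side, and both were lower in the cryo group. The gene next to it, the sulfotransferase gene sult1st5, had 49, 34 and 22 fresh counts but no cryo count, which puts it at least 21.2-fold lower (edgeR adjusted p = 0.0325). SZRD1, protein-coding gene 3 on that side, had 201, 107 and 141 counts in fresh and 4, 5 and 5 counts in cryo replicates 1, 2 and 3, or 8.69 ± 3.0 CPM against 0.508 ± 0.229 CPM (SD, n = 3 each). Its log2 change was -4.17 ± 0.50 (SE, edgeR adjusted p = 0.0113). The ratio of its fresh mean to the pooled cryo level was 19.6 (counting interval 11.7 to 35.8). The genes between sult1st5 and SZRD1 had no match in the table. ATP13A2, the gene after SZRD1, had 0.163 to 1.38 CPM in fresh and 0.0647 to 1.33 CPM in cryo libraries, which overlapped (log2 -0.53 ± 1.02, adjusted p = 0.831). On the other side, the nearest gene that could be tested, epha2b, overlapped between the groups as well (log2 -0.38 ± 0.56, adjusted p = 0.775). With fewer libraries the calls were lost in part: sult1st5 missed the threshold without any one library except cryo replicate 1 (0.0554 to 0.118), and SZRD1 without fresh replicate 3 (0.0635). With cryo replicates 2 and 3 both left out the adjusted p was 0.0943 for sult1st5 and 0.0549 for SZRD1.

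Around the other 3 placed genes, edgeR called 0 of 4 tested neighbours in that window, with 0 at an unadjusted p under 0.05 and 0 by DESeq2 or limma-voom. Beside cbr1l, tgfb1b had 1.16 ± 0.255 CPM in fresh and 2.14 ± 0.91 CPM in cryo libraries (log2 0.86 ± 0.49, adjusted p = 0.396), and 5 of the 7 matched neighbours, all of them odorant receptor genes, had no count in any library. Beside LIPG, IPO11 had 16.7 ± 3.37 and 10.8 ± 5.28 CPM (log2 -0.63 ± 0.39, adjusted p = 0.445). On LIPG's other side mthfd2l stood at 1.65, 1.96 and 1.5 CPM in the fresh libraries and 1.16, 0 and 0.111 CPM in cryo replicates 1, 2 and 3 (log2 -1.75 ± 0.89, adjusted p = 0.344), so that cryo replicate 1 stood close to the fresh libraries. Near PIK3C2A, si:dkey-29p10.4 had 6.78 ± 1.53 and 10.2 ± 3.2 CPM (log2 0.59 ± 0.34, adjusted p = 0.403).

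A wider window of 20 protein-coding genes on each side, chosen after the values in the first window were seen, held 160 genes, of which 111 had a row and 43 could be tested. Of these, 4 were called lower and 1 higher in the cryo group, beside 0.963% and 1.02% of all tested genes. Besides sult1st5 and SZRD1, the lower ones were 2 adjacent genes 8 and 9 places from PIK3C2A. ZNF592, a zinc finger protein gene, had 53, 54 and 29 fresh counts but no cryo count, which puts it at least 27.3-fold lower (edgeR adjusted p = 0.024). SEC11A, a catalytic subunit of the signal peptidase complex, had 66, 49 and 63 counts in fresh and 2, 1 and 2 counts in cryo libraries, a log2 change of -4.34 ± 0.50 (SE; adjusted p = 0.00988). None of the genes between ZNF592 and PIK3C2A could be tested. Without fresh replicate 1, 2 or 3 the adjusted p of ZNF592 was 0.0885, 0.103 and 0.0861, and without fresh replicate 3 that of SEC11A was 0.0714; with cryo replicates 2 and 3 both left out they were 0.0641 and 0.0618. The gene called higher was arhgap4a, 18 places from tmem82, at 0.598 to 0.764 CPM in fresh and 2.66 to 4.26 CPM in cryo libraries (log2 2.23 ± 0.40, adjusted p = 0.0395), a call lost without any one library except cryo replicate 1 (0.0696 to 0.183). In this window edgeR called 0 of 16 tested genes around cbr1l and LIPG, with 4 at an unadjusted p under 0.05 and 0 by DESeq2 or limma-voom.

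**Figure D4:**
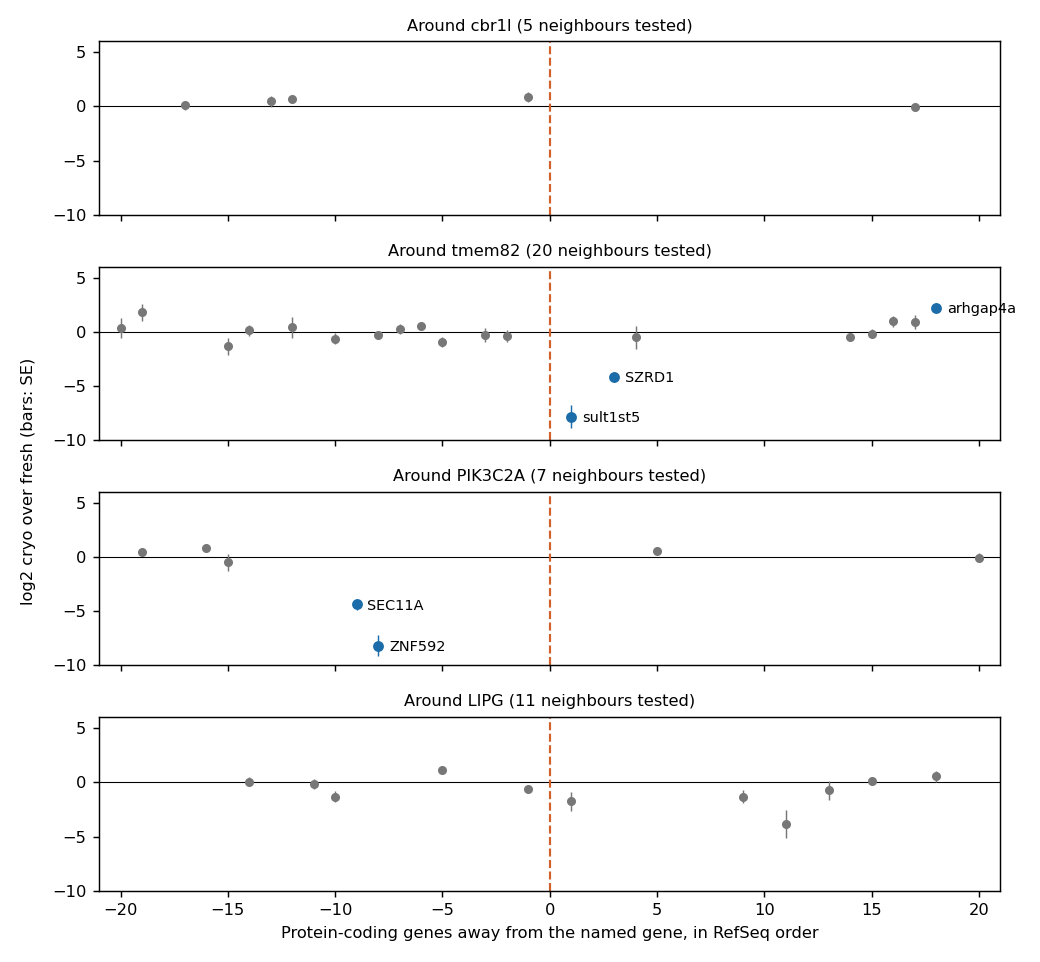
Log2 change (cryo over fresh, bars SE) of the tested neighbours within 20 protein-coding genes of cbr1l, tmem82, PIK3C2A and LIPG, in RefSeq gene order; the dashed line is the named gene and blue points passed the test. Of 43 neighbours, sult1st5, SZRD1, ZNF592 and SEC11A fell and arhgap4a rose; the fitted values of sult1st5 and ZNF592, with 0 cryo counts, depend on a prior count.

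Genes of the same pathways were counted in 6 lists by role. Over these lists 175 genes other than the 5 were tested and 2 passed, 1.14%, beside 1.98% of all tested genes, whose median log2 change was 0. The calls depended on the method. DESeq2 called 21 of these 175 genes, 16 of them lower. It was fitted on the 21810 genes with a count, not only on the 12674 that edgeR tested. Over that larger set it called 1154 genes, 523 of them lower. Without fresh replicate 1, 2 or 3 edgeR called 0. For lists and neighbours, counts by unadjusted p, DESeq2 or limma-voom are given without the share of all tested genes. No excess is read from them. Every fresh library lay above every cryo library for 15 of 35 reductases, 11 of 23 lipases and partners, 8 of 26 HDL genes, 7 of 29 clathrin genes, 6 of 48 phosphoinositide genes and 0 of 14 corepressor genes, beside 13.4% of all tested genes.

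Of 14 tested genes of the LSD1-CoREST complex and its partners, the setting in which PHF21A works, edgeR called 0, with 1 at an unadjusted p under 0.05 and 0 by DESeq2 or limma-voom, and the median log2 change was 0.12. The demethylase gene KDM1A had 31.6, 32.9 and 30.2 CPM in the fresh and 27.9, 40.3 and 27.5 CPM in the cryo libraries. The scaffold gene RCOR1 had 10.7 to 15.0 CPM in fresh and 11.3 to 14.8 CPM in cryo libraries, and the deacetylase gene HDAC1 40.2 to 51.7 and 37.7 to 44.1 CPM. All 3 overlapped between the groups, at log2 changes of 0.01 ± 0.24, 0.10 ± 0.26 and -0.24 ± 0.22 (SE; edgeR adjusted p = 0.986, 0.877 and 0.606); the signs of KDM1A and RCOR1 turned in some alternatives. REST, the repressor of neuronal genes that recruits the complex, had -0.55 ± 0.26 (adjusted p = 0.31). The smallest p in the list belonged to SFMBT1, at 0.299 to 0.882 CPM in fresh and 1.04 to 4.55 CPM in cryo libraries (adjusted p = 0.179).

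Of 35 tested carbonyl and aldo-keto reductase genes other than cbr1l, edgeR called 0, with 12 at an unadjusted p under 0.05, 7 by DESeq2 and 0 by limma-voom. The median log2 change was -0.37, and 27 of the 35 were negative, beside 49.9% of all tested genes. DHRS1, a short-chain dehydrogenase gene, had 106 ± 5.15 CPM in fresh and 45.5 ± 9.65 CPM in cryo libraries (log2 -1.22 ± 0.25, edgeR adjusted p = 0.0574). The gene hsd17b2, whose enzyme inactivates sex steroids in mammals, had 14, 61 and 16 counts in the fresh libraries and 0, 0 and 1 in the cryo libraries (adjusted p = 0.0621). CBR4, a mitochondrial relative, had 18.2 to 32.7 CPM in fresh and 17.7 to 18.3 CPM in cryo libraries (log2 -0.37 ± 0.29, adjusted p = 0.536).

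Of 48 tested phosphoinositide kinase and phosphatase genes other than PIK3C2A, edgeR called 0, with 2 at an unadjusted p under 0.05 and 0 by DESeq2 or limma-voom, at a median of -0.16. PIK3R4 and PIK3C3, partners in the class III kinase, had log2 changes of -0.52 ± 0.21 and -0.33 ± 0.25 (SE; edgeR adjusted p = 0.237 and 0.539). The phosphatase gene MTMR2 had 3.01 ± 0.172 CPM in fresh and 6.03 ± 1.13 CPM in cryo libraries (adjusted p = 0.127). In the clathrin list, which holds the coat that PIK3C2A binds, 1 of 29 tested genes passed. HIP1R, a link between clathrin coats and actin, fell from 18.8, 8.55 and 15.3 CPM to 3.82, 2.41 and 4.22 CPM (log2 -2.02 ± 0.39, adjusted p = 0.0455). Its call was lost without any one library except cryo replicate 1 (0.0786 to 0.189) and by limma-voom (0.065). It was lost too with upper-quartile size factors, after thinning, and with the replicate numbers as a block. The clathrin heavy chain gene CLTC had 36.8 to 47.4 CPM in fresh and 20.1 to 39.1 CPM in cryo libraries, which overlapped (log2 -0.59 ± 0.30, adjusted p = 0.337).

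Of 23 tested lipases and lipase partners other than LIPG, 1 passed, and it rose. Log2 changes were negative for 16 of the 23, beside 49.9% of all tested genes, at a median of -0.39. Of these 23 genes, 9 had an unadjusted p under 0.05, and DESeq2 called 6 and limma-voom 1. CEL (ENSDARG00000017490), the bile salt lipase of the exocrine pancreas, rose from 22.0, 26.0 and 16.4 CPM to 150, 107 and 207 CPM in cryo replicates 1, 2 and 3 (log2 2.85 ± 0.34, edgeR adjusted p = 0.0115). It is itself among the called pancreatic markers given above. Without fresh replicate 1, 2 or 3 its edgeR adjusted p was 0.057, 0.0658 and 0.0791. The other CEL row, ENSDARG00000029822, had 24.4 ± 7.17 CPM in fresh and 68.3 ± 42.9 CPM in cryo libraries, which overlapped (log2 1.49 ± 0.54, edgeR adjusted p = 0.198). Both close relatives of LIPG, LPL and LIPC, were read in every library, though another LPL row, ENSDARG00000098720, had no count in any library. LPL (ENSDARG00000087697), the lipoprotein lipase gene, had 1488, 1562 and 2606 CPM in fresh and 956, 722 and 1123 CPM in cryo libraries; the groups did not overlap, but the change of -1.01 ± 0.36 did not pass (adjusted p = 0.192). LIPC, the hepatic lipase gene, had 459, 531 and 567 CPM in fresh and 672, 609 and 642 CPM in cryo libraries (log2 0.30 ± 0.26, adjusted p = 0.587).

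LIPG is an endothelial gene in mammals, and the 19 endothelial markers summed to 160 to 179 CPM in fresh and 102 to 165 CPM in cryo libraries, which overlapped. None of the 19 had 0 counts over the cryo group. Of 11 tested, edgeR called 0, at a median log2 change of 0.07, and single markers lay on both sides. KDR had a log2 change of -1.21 ± 0.26 (SE; edgeR adjusted p = 0.0597), ESAM -1.09 ± 0.49 (adjusted p = 0.292) and vwf 1.37 ± 0.39 (adjusted p = 0.113), none with overlapping groups. The vascular receptor gene kdrl had 86.7, 90.7 and 88.3 CPM in fresh and 68.8, 39.9 and 41.5 CPM in cryo libraries (edgeR adjusted p = 0.171), and the endothelial cadherin gene cdh5 20.7 to 29.6 and 23.7 to 36.0 CPM (adjusted p = 0.694). In bulk RNA, fewer cells of a type and less RNA per cell cannot be told apart. Of 26 tested genes of HDL and lipoprotein exchange edgeR called 0, with 10 at an unadjusted p under 0.05, 7 by DESeq2 and 1 by limma-voom, at a median of -0.42. SCARB1, the HDL receptor gene, had 1.97 to 2.5 CPM in fresh and 2.26 to 4.0 CPM in cryo libraries (log2 0.35 ± 0.38, adjusted p = 0.675). The lysosomal gene scarb2a had 81.3 ± 18.6 and 204 ± 27.8 CPM (adjusted p = 0.0575), and the apolipoprotein gene apoa4b.3 39.5 ± 20.7 and 5.59 ± 3.67 CPM (adjusted p = 0.0671).

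**Figure D5:**
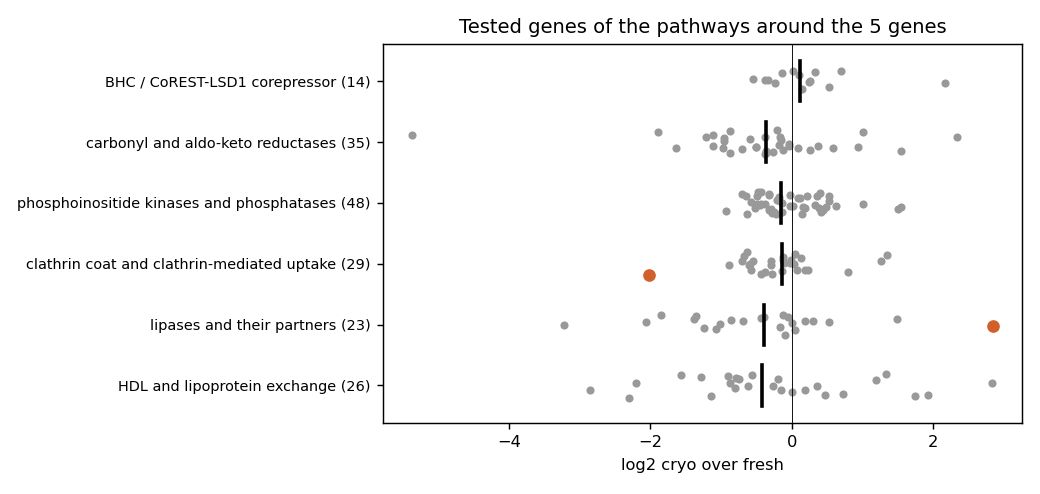
Log2 change (cryo over fresh) of the tested genes in the 6 pathway lists, without the 5 named genes; the number tested stands beside each list, black bars are medians, orange points passed the test, and the vertical scatter has no meaning. Medians lie between -0.42 and 0.12, and HIP1R and CEL are the genes that passed.

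Profiles were compared by the root mean square difference of log2 CPM over the 6 libraries, each gene centred on its own mean. This measure takes in the difference between the groups on which the 5 genes were chosen, and for genes with few or no cryo counts it depends on the prior count of 2, so the nearest genes are a description. Among the tested genes PHF21A and cbr1l were each other's nearest, at 0.58 on the log2 scale. Their next nearest were ENSDARG00000117745 and si:ch211-194p6.10 for PHF21A, at 0.85 and 0.90 and with 0 cryo counts each, and ENSDARG00000099419 and gstt1b for cbr1l, at 1.27 and 1.28. ENSDARG00000099419 went from 13370, 4007 and 6621 counts in the fresh libraries to 3, 11 and 1 in the cryo libraries, 981-fold lower (counting interval 595 to 1752). The glutathione transferase gene gstt1b went from 35.6, 50.3 and 30.2 CPM to 0.453, 0.142 and 0.555 CPM.

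The nearest of tmem82 were gstt1b (0.43), NCEH1 (0.43), which encodes a cholesterol ester hydrolase and kept 81 counts in the cryo group against 3381 in the fresh group, and ENSDARG00000117745 (0.48). PIK3C2A lay nearest to eif4ebp1 (0.44), a repressor of translation initiation, ACOT12 (0.45), an acetyl-CoA thioesterase gene, and IDH3B (0.55), a subunit of the mitochondrial isocitrate dehydrogenase. IDH3B had 123 counts in each fresh library and 2, 1 and 0 in the cryo libraries. LIPG lay nearest to zgc:172106 (0.22), the potassium channel gene kcng4b (0.34) and the histamine receptor gene hrh3 (0.35). Those 3 were read less than LIPG, with 268, 243 and 184 counts in the fresh group and 0 in the cryo group, so their fall is known as a lower bound alone. Among the 5 genes, cbr1l and LIPG stood farthest apart, at 1.89, with 20 tested genes closer to cbr1l than LIPG was and 520 closer to LIPG than cbr1l was, and tmem82 and LIPG stood 0.67 apart.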

How the data were processed

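The authors deposited raw counts per Ensembl gene for 6 liver libraries. Reads were aligned with HISAT2, per the file headers, to GRCz11, per the submitters' processing notes; for the counting tool, the strand setting and the release of the annotation, nothing is given in the sources used here. Symbols matched 29201 of 32520 identifiers. Of 21810 genes with a count, 12674 passed filterByExpr and were tested with edgeR 4.0.16 in R 4.3.3 (TMM, quasi-likelihood fit of group, two-sided, Benjamini-Hochberg adjustment over all tested genes, threshold 0.05); the biological coefficient of variation was 0.413. An SE is the log2 change over the square root of F. The procedure was also run on simulated counts drawn with the same dispersion for every gene, and no result here rests on that run.

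The 5 genes, the lists and the tests were chosen with earlier results of these data known. Genes named are the 5, copies and relatives by name, and list members past the threshold or otherwise the 2 of smallest p. Called or nearest tested neighbours and the 3 nearest profiles are named too. Complex subunits and other pathway partners were added by role. The gene si:dkeyp-73d8.8 and the endothelial, intestinal, lymphocyte and macrophage markers named were added after their values were seen. List symbols were matched exactly, then in capitals, then without a copy suffix. Alternatives were DESeq2 1.42.0, voom of limma 3.58.1, other size factors and filters, a replicate block, left-out libraries, vitellogenin genes removed, and thinning to 8277183 counts. Total counts per library, from 8277183 to 17606733, set the precision. No sequences of the genes were used. Figures were drawn with matplotlib 3.10.9.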

Additional observations from a re-analysis of the deposited data

How the results depend on the processing

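The PIK3C2A ratio was 106 in the main run and 76.0 to 138 in the alternatives, and the LIPG ratio 37.7 and 30.7 to 45.8. These changes stayed within the spread between the fresh libraries, a coefficient of variation of 36.2% for PIK3C2A and 40.5% for LIPG. That spread was 6.29% for tmem82, 13.7% for PHF21A and 17.8% for cbr1l, so the limit was loosest for PIK3C2A and LIPG. Staying within it does not show their ratios to be steadier than those of the other named genes. PHF21A was at least 235-fold lower after thinning, 167-fold with cryo replicate 1 alone of the cryo group, 102-fold with the floor set per library, and at least 174-fold to 366-fold lower with 1 library left out. For cbr1l the ratio was 1660 after thinning and 576 with cryo replicate 1 alone, and 399 (at least, without cryo replicate 1) to 1271 with 1 library left out. For tmem82 it was 96.1 by library totals alone, 143 after thinning and 52.8 with cryo replicate 1 alone, and 66.9 to 219 with 1 library left out.

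edgeR called 251 genes in all, 705 without the low-count filter, 109 with cryo replicate 1 alone of the cryo group and 32 to 873 with 1 library left out; DESeq2 called 1154. Pathway calls (2) were 9 without the filter, 21 by DESeq2, 1 after thinning and 0 to 13 with 1 library left out. Neighbour calls (2) were 1 after thinning, 0 with cryo replicate 1 alone, 5 in the wider window and 0 to 3 with 1 library left out. Genes silent in cryo (3) numbered 5 after thinning, 7 from 5 CPM upward, 5 at up to 10 counts, 9 with cryo replicate 1 alone and 4 to 11 with 1 library left out. Genes silent in fresh (0) numbered 2, 2, 3 and 3 in the same 4 settings and 0 to 14 with 1 library left out.

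Correlations of deviations from the group means were -0.065, -0.133 and 0.058 between fresh and cryo libraries of the same replicate number. Between libraries of different numbers they were -0.109 to 0.161. With 3 libraries per group these values do not show whether replicate numbers pair the samples. With the numbers as a replicate block 33 genes were called, 31 of them among the 251, with 0 pathway genes and 0 neighbours. Signs turned for genes near no change: KDM1A by limma-voom and under the replicate block (-0.01 each), without cryo replicate 2 and with cryo replicate 1 alone (-0.14 each); RCOR1 with cryo replicate 1 alone (-0.10); PHF21B in the latter (0.21) and without fresh replicate 2 (0.18), fresh replicate 3 (0.06) or cryo replicate 2 (0.40); CBR1 without cryo replicate 1 (-0.02) or 2 (-0.08); PIK3C2B without fresh replicate 3 (0.08) or cryo replicate 2 (0.10). With 1 library left out these ranged from -0.14 to 0.13 for KDM1A, -0.08 to 0.38 for CBR1, -0.51 to 0.10 for PIK3C2B and -0.55 to 0.40 for PHF21B. The causes were not tested. With cryo replicate 1 alone, that library is assumed to vary like the others. Depth limits the cryo levels, since 3 counts are 0.426 CPM in cryo replicate 2.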

Other observations

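In the wider window around LIPG, angptl2b differed among the cryo libraries. angptl2b, an angiopoietin-like gene 11 protein-coding places from LIPG, had 216, 477 and 592 CPM in fresh replicates 1, 2 and 3 and 82.2, 2.27 and 3.89 CPM in cryo replicates 1, 2 and 3, so that cryo replicate 1 lay between the fresh libraries and the other two cryo libraries. Its log2 change of -3.85 ± 1.29 (SE) did not pass (edgeR adjusted p = 0.166). It was chosen after its values were seen.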
